A study of Mus musculus with 3 samples.

Results

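Clotting factors of the plasma and the fibrinogen chains were followed in mouse RNA from liver, adult and fetal, and from bone marrow. The 10 genes were F2, F5, F7, F9, F10, F11, F12, Fga, Fgb and Fgg, taken as the probes whose gene name in the array files is one of these symbols or an alias. They made up 10 of 19712 named genes and 11 of 41174 gene probes, since F9 had 2 probes and each other gene had 1. All RNA came from the C57BL/6 strain, with adult liver from mice aged 12 weeks and fetal liver from gestation day 13.5. The wording of the labels does not settle the age of the bone marrow donors, and neither sex nor the number of animals pooled is known here. A single 1-colour array was read per tissue, so there is no spread between animals and no test, and every comparison describes these 3 RNA samples.

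The liver makes most plasma clotting factors. In the contact pathway F12 activates F11 and F11 activates F9, which with its cofactor cuts F10. F7 bound to tissue factor on damaged tissue also cuts F10. Activated F10 with its cofactor F5 cuts prothrombin, the product of F2, and the resulting thrombin turns fibrinogen, built from the chains of Fga, Fgb and Fgg, into fibrin. F2, F7, F9 and F10 need a vitamin K dependent modification before they bind membranes. Platelets also carry F5, and mouse megakaryocytes make it themselves.

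The arrays had 43379 gene spots each, of which adult liver had 52.6% well above background, fetal liver 58.7% and bone marrow 58.8%. The signal of a spot is its background-subtracted and detrended brightness, with a surrogate value in its place for dim spots. Before tissues were compared, each signal was divided by the 75th percentile of the gene signals of its array, which was 296.5 in adult liver, 386.0 in fetal liver, against 894.5 in bone marrow. The lowest gene signal called well above background was 18.9 in adult liver and 23.7 in bone marrow, with fetal liver below both. Levels of different probes cannot be set against each other on such arrays, so only the tissues are compared, probe by probe. The error given with a signal is the scanner's own for that spot, mostly 10% of the signal by the setting in the file header, and does not include differences between samples.

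Each of the 10 genes had its highest level in adult liver after scaling to the 75th percentile, although F5 was lower in adult liver than in bone marrow when arrays were scaled to spike-in RNAs. Adult liver exceeded fetal liver by 4-fold or more in 10 of 10, against 14.1% of the 14186 named genes compared, and 0 of 10 were at least 4-fold lower, against 12.1%. Either way, 10 of 10 differed by 4-fold, against 26.2%. The median difference was 12.4-fold, or 3.64 on the log2 scale, where the median of all genes was -0.06. The smallest difference was that of F11 (4.63-fold) and the largest that of Fga (21.3-fold). In bulk tissue, fewer hepatocytes and less RNA per hepatocyte cannot be told apart. The defining hepatocyte markers also differed between the same samples, over a wide range. Alb was 5.62-fold, Ahsg 4.19-fold, Apoa1 9.68-fold, Ttr 10.3-fold and Tat 293-fold higher in adult liver, whereas Afp, the fetal plasma protein, was 1631-fold lower. In fetal liver all 5 erythroid markers and all 9 megakaryocyte and platelet markers were well above background, and 4 of 5 and 8 of 9 of them were at least 4-fold lower in adult liver. The part of these cells in the differences of the clotting genes was not tested.

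**Figure D1:**
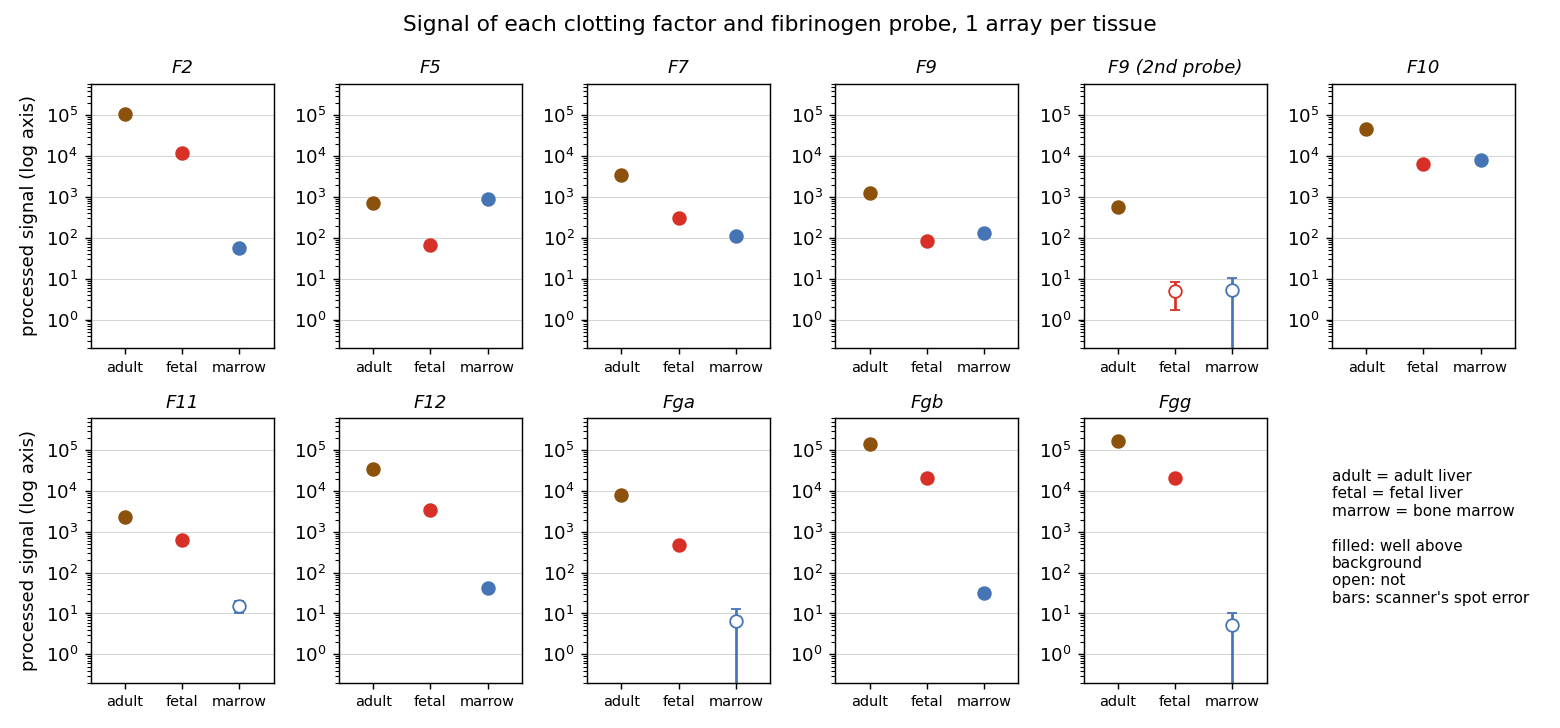
Processed signal (log axis) of each of the 11 probes in adult liver, fetal liver and bone marrow, 1 array per tissue. Filled points are well above background, open points are not, and bars are the scanner's spot error. The adult liver point is above the fetal liver point in every panel, while bone marrow lies near background for Fga, Fgg and F11 and at 8120 for F10.

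Fgg and Fgb had the largest differences, measured or as lower bounds, of the 10 genes between either liver and bone marrow. Fgg, the gamma chain, gave signals of 168000 ± 16800 in adult liver, 20500 ± 2050 in fetal liver, against 5.18 ± 5.16 in bone marrow. Fgb, the beta chain, gave 145000 ± 14500 in adult liver, 20400 ± 2040 in fetal liver, against 32.2 ± 6.63 in bone marrow. Fga, the alpha chain, gave 7840 ± 784 in adult liver, 480 ± 48.2 in fetal liver, against 6.56 ± 6.53 in bone marrow. Both livers were thus far above bone marrow for all 3 chains, and only Fgb was well above background there. Before background subtraction the bone marrow spots had a mean intensity of 81.0 beside a local background of 59.0 for Fgg and 78.8 beside 57.5 for Fga.

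Between adult and fetal liver, Fgb was 9.25-fold and Fgg 10.7-fold higher in adult liver, while Fga was 21.3-fold higher. On the log2 scale the difference of Fga exceeded that of Fgb by 1.20 and that of Fgg by 0.995, with a combined spot error of 0.29 in both cases. Fgg and Fgb were 0.21 apart, within that error. Whether the larger step of Fga would recur in other animals was not tested, since no tissue was repeated. Against bone marrow, fetal liver was 1468-fold higher for Fgb, at least 2004-fold higher for Fgg and at least 46.9-fold higher for Fga. Adult liver was 13585-fold higher than bone marrow for Fgb, at least 21385-fold for Fgg and at least 998-fold for Fga. A fold written "at least" is taken against the array's lowest signal that passed as well above background, because the probe itself was dim there. The size of such folds, and of those resting on a signal as low as that of Fgb in bone marrow, is approximate.

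The 3 fibrinogen genes lie side by side. On build mm9, which the array files use, the Fgg probe is at chr3:82818825-82818884, the Fga probe at chr3:82835678-82835737 and the Fgb probe at chr3:82846334-82846393, the last one on the opposite strand. Which exon or untranslated region each probe meets was not analysed here. Because the 3 genes lie side by side and were high and low in the same tissues, the 250 bases before their start sites are shown. They come from the RefSeq promoter table on build GRCm38.p6. In the scaled levels the same order, adult liver above fetal liver above bone marrow, held for 9 of the 10 clotting genes. For F9 and F10 the step between fetal liver and bone marrow turned with spike-in scaling, to -1.66 and -1.28 on the log2 scale. F2, F7, F11 and F12 kept the order with that scaling, so it is not particular to these 3 fibrinogen genes. Both strands were searched, with 7 motifs reported, and capitals mark matches to 3 of them, namely TTGCNNAA of C/EBP, CTGGGAA of the type II interleukin-6 response element and CAAAGT of HNF4. The capital stretches do not overlap one another. The windows are chr3:83007474-83007723 (+ strand) for Fgg, chr3:83025903-83026152 (+ strand) for Fga and chr3:83049864-83050113 (- strand) for Fgb, each written 5′ to 3′ along its gene.
Fgg: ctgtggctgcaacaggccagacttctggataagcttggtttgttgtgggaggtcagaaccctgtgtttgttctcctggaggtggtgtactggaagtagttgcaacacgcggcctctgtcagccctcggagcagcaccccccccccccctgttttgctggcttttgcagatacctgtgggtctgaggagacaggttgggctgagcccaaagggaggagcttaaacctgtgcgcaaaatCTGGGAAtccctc
Fga: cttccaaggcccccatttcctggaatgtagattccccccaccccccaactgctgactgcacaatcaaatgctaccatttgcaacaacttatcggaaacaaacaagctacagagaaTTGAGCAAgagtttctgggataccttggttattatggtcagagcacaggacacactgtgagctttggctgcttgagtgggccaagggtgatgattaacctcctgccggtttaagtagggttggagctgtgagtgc
Fgb: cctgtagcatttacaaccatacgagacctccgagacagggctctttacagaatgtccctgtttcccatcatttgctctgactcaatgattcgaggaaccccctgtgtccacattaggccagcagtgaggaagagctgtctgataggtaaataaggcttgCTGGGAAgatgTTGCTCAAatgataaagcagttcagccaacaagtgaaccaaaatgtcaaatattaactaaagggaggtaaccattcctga

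Fgb held 2 matches, CTGGGAA from position -91 and TTGCNNAA from -80, counted from the start site. Fga held TTGCNNAA from -135 on the other strand, and Fgg held CTGGGAA from -13. Over all 32851 promoter windows of the same length, TTGCNNAA occurred in 9.56%, CTGGGAA in 9.10% and CAAAGT in 12.6%. The other 4 motifs are not in capitals. CCAAT occurred in 33.8% of all windows and in those of F7 and F12. TATAAA (12.4% of all windows), the forkhead motif TGTTTGC (4.30%) and the longer HNF4 motif CAAAGTCC (1.20%), which contains CAAAGT, occurred in 0 of the 10 windows of the clotting genes. The motifs were picked with these windows in view. A match shows only that the letters are present, and an absent match only that they are not in this window.

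The vitamin K dependent factors had a common direction between the livers and diverged in bone marrow. F2, which encodes prothrombin, gave 111000 ± 11100 in adult liver, 12000 ± 1200 in fetal liver, against 55.2 ± 7.99 in bone marrow. F7, the partner of tissue factor, gave 3500 ± 350 in adult liver, 311 ± 31.3 in fetal liver, against 111 ± 12.9 in bone marrow. F10, the protease that cuts prothrombin, gave 45300 ± 4530 in adult liver, 6640 ± 664 in fetal liver, against 8120 ± 812 in bone marrow. The F2 probe lies at chr2:91465585-91465644 on mm9. Bone marrow was near background for F2, dim for F7 and clearly measured for F10. Adult liver exceeded fetal liver by 12.0-fold for F2, 14.7-fold for F7 and 8.88-fold for F10.

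Fetal liver exceeded bone marrow by 504-fold for F2 and 6.49-fold for F7. For F10 the scaled level was 17.2 in fetal liver and 9.08 in bone marrow, 1.89-fold apart and so below 4-fold, although the unscaled signal was the higher one in bone marrow. Adult liver exceeded bone marrow by 6067-fold for F2, 95.1-fold for F7 and 16.8-fold for F10. When arrays were scaled to the spike-in RNAs in place of the 75th percentile, 2 of these calls ended. F7 then differed by 1.41-fold between fetal liver and bone marrow, and F10 by 2.50-fold between adult liver and bone marrow. Under the same scaling F10 was lower in fetal liver than in bone marrow, by -1.28 on the log2 scale, so its direction between these tissues is not settled. Of 6 macrophage markers, 2 were at least 4-fold higher in fetal liver than in bone marrow (Marco 5.64-fold, Clec4f at least 6.16-fold), 2 were lower (Cd68 13.3-fold, Vsig4 at least 11.1-fold) and 2 were neither. All 6 neutrophil markers were at least 4-fold lower in fetal liver. Over all genes compared between these tissues, 9.33% were higher and 8.30% lower. The part of these cells in the F10 signal was not tested.

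F7 and F10 are neighbours on chromosome 8, with probes at chr8:13035287-13035346 and chr8:13055774-13055833 on mm9. Their differences between fetal liver and bone marrow were 1.78 apart on the log2 scale, with a combined spot error of 0.30. The bases before their start sites are given because the genes are adjacent but differ in bone marrow. The windows on GRCm38.p6 are chr8:13025784-13026033 for F7 and chr8:13037058-13037307 for F10, both on the + strand, and neither holds any of the 3 motifs in capitals elsewhere.
F7: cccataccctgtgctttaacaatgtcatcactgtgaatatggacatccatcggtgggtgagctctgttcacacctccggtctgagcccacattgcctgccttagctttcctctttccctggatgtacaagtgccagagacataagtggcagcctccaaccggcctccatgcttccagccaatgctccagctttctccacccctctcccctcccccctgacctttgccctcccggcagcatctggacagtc
F10: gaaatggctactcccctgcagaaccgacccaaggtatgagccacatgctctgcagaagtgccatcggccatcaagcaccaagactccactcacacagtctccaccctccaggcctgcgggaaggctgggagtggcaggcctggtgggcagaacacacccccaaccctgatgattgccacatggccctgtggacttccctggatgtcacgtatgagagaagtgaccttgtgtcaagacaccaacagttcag

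F9, the factor lacking in haemophilia B, was the gene whose probes disagreed. The probe at chrX:57282894-57282953 gave 1230 ± 123 in adult liver, 84.5 ± 9.06 in fetal liver, against 134 ± 14.4 in bone marrow. The probe at chrX:57282531-57282590, 363 bases away, gave 579 ± 58.1 in adult liver, 5.05 ± 3.32 in fetal liver, against 5.18 ± 5.15 in bone marrow. Both were well above background in adult liver, but only the first was so in the other tissues. By the first probe adult liver was above fetal liver by 4.24 on the log2 scale and above bone marrow by 4.79 (27.7-fold). By the second probe the same differences were at least 50.3-fold and at least 73.7-fold. Fetal liver and bone marrow differed by 1.46-fold with the first probe, higher in fetal liver, and could not be compared with the second. With spike-in scaling the first probe was lower in fetal liver, by -1.66 on the log2 scale. The low F9 signals outside adult liver thus rest on 1 of 2 probes.

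The F9 window, chrX:59999214-59999463 on the + strand of GRCm38.p6, is shown because it is one of the 2 with a match to CAAAGT, the other being F11. It also holds TTGCNNAA from -24, beside CTGGGAA from -82 and CAAAGT from -53 on the other strand.
F9: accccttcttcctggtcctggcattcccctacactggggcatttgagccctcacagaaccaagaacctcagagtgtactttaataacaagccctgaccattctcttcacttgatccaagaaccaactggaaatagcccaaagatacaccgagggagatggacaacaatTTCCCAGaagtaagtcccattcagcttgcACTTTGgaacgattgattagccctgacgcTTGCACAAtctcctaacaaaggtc

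The contact factors F12 and F11 were bright in both livers and near or below the detection limit in bone marrow. F12, which starts the contact pathway, gave 34700 ± 3470 in adult liver, 3510 ± 351 in fetal liver, against 42.0 ± 6.73 in bone marrow. F11, which F12 activates, gave 2260 ± 226 in adult liver, 635 ± 63.6 in fetal liver, against 15.1 ± 5.03 in bone marrow, where it was not well above background. Adult liver exceeded fetal liver by 12.9-fold for F12 but only 4.63-fold for F11. The F11 difference was the smallest of the 10 genes, and with spike-in scaling it was 3.17-fold and no longer past 4-fold. Fetal liver exceeded bone marrow by 194-fold for F12 and at least 62.1-fold for F11, and adult liver did so by 2493-fold and at least 288-fold. The F12 probe lies at chr13:55519456-55519515 and the F11 probe at chr8:46326753-46326812 on mm9.

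F5, the cofactor of F10, was the 1 gene of the 10 with a lower scaled level in fetal liver than in bone marrow. It gave 729 ± 73.0 in adult liver, 66.1 ± 7.58 in fetal liver, against 902 ± 90.4 in bone marrow. Fetal liver stood apart as the low tissue, 14.4-fold below adult liver and 5.89-fold below bone marrow. Adult liver and bone marrow differed by 2.44-fold, higher in adult liver, and this direction turned under spike-in scaling, to -1.47 on the log2 scale. With normexp background correction F5 was 3.55-fold lower in fetal liver than in bone marrow, short of 4-fold. The difference between adult and fetal liver was then 2.91 on the log2 scale instead of 3.84. In fetal liver the F5 spot had a mean intensity of 141 beside a local background of 58, so the size of these folds is approximate. Of 9 megakaryocyte and platelet markers, 0 differed by 4-fold between fetal liver and bone marrow, against 17.6% of all genes. Their median was -0.64 on the log2 scale, with a range from -1.42 to 0.63. All 9 were at least 4-fold lower in adult liver than in bone marrow, against 15.0% of all genes. Pf4, a platelet chemokine, gave 240 in adult liver, 38500 in fetal liver, against 57700 in bone marrow. The part of these cells in the F5 signal was not tested. The genome coordinates given for the F5 probe cover 2189 bases of chromosome 1 (166139728 to 166141916, mm9), where those of the other probes cover 60. These are positions on the genome, and the length of the probe itself was not analysed here.

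**Figure D2:**
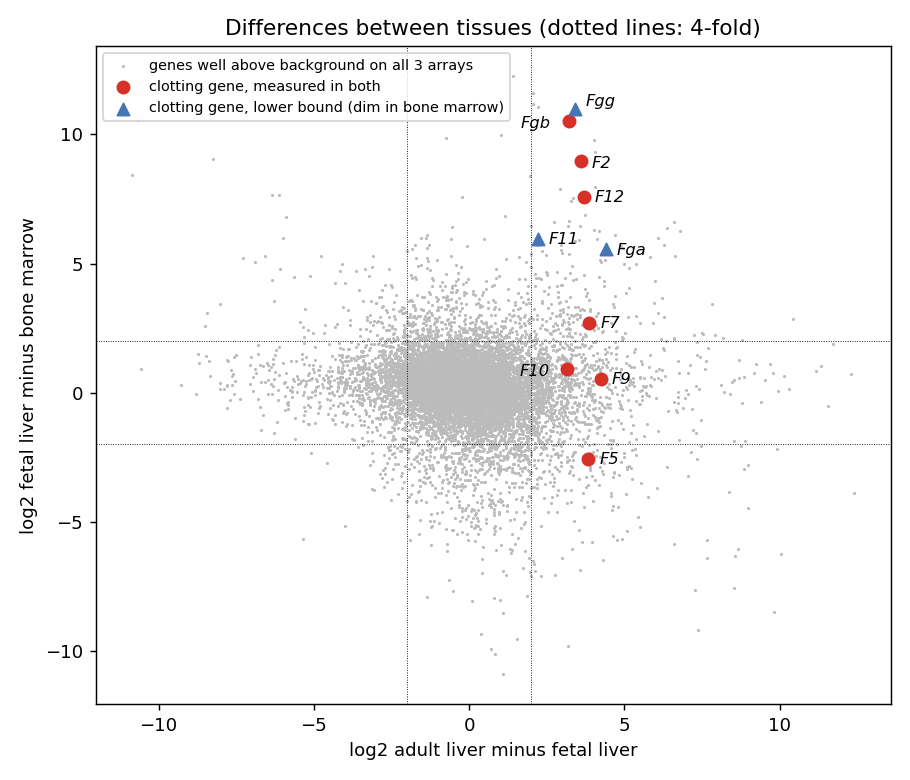
Each gene's log2 difference of adult liver minus fetal liver (x axis) against fetal liver minus bone marrow (y axis), with grey points for genes measured in all 3 tissues and triangles for lower bounds. All 10 clotting genes lie right of the 4-fold line, from 2.21 to 4.41, while on the y axis they run from -2.56 for F5 to at least 10.97 for Fgg.

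Fetal liver exceeded bone marrow by 4-fold or more in 7 of 10 genes, against 9.33% of the 14677 genes compared, and 1 of 10 was at least 4-fold lower, against 8.30%, so that 8 of 10 differed either way, against 17.6%. The median difference was 54.0-fold. F9 and F10 were within 4-fold. Adult liver exceeded bone marrow by 4-fold or more in 9 of 10, against 18.8% of 14245 genes, with F5 as the exception and 0 of 10 at least 4-fold lower, against 15.0%. The share that differed either way was 33.8% over all genes. The median was 536-fold. The comparisons share arrays and are not independent of one another. All 6 hepatocyte markers on the array were well above background in both livers and 3 of 6 in bone marrow, where Ahsg gave 74.2, Afp 326 and Tat 372, while Alb (6.21), Ttr and Apoa1 were not. Their part in these differences was not tested. The bone marrow folds depend strongly on the scaling, since spike-in scaling put the median of all genes at -1.99 between fetal liver and bone marrow and at -2.63 between adult liver and bone marrow, in place of 0.26 and 0.09. The share of higher calls among all genes past 4-fold was then 4.41% instead of 52.9% and 8.48% instead of 55.6%, and 35.4% instead of 54.0% between the livers. With scaling to the array median it was 38.8% between fetal liver and bone marrow and 45.4% between adult liver and bone marrow.

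**Figure D3:**
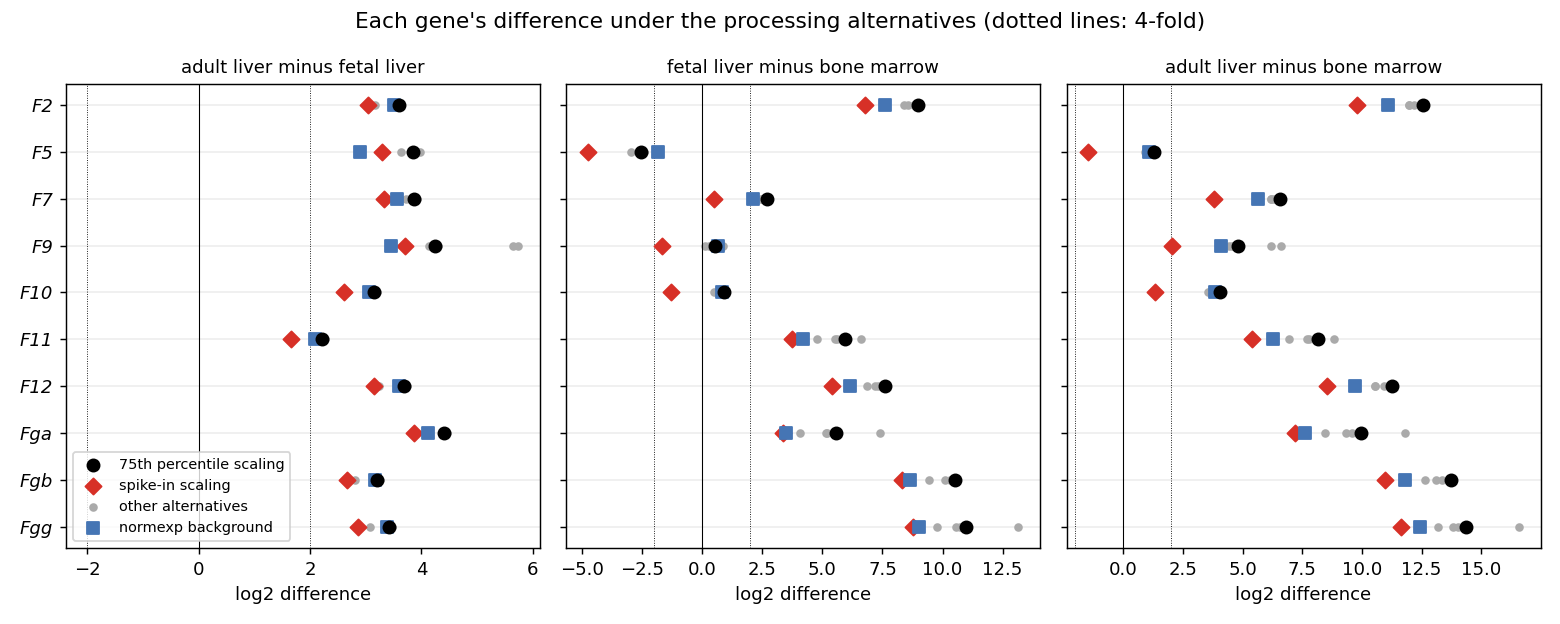
Log2 difference of each gene in the 3 comparisons with 75th percentile scaling (black), spike-in scaling (red diamonds), normexp background correction (blue squares) and the other alternatives (grey). F5, F9 and F10 cross 0 against bone marrow under spike-in scaling, at -1.47 for F5 in adult liver, -1.66 for F9 and -1.28 for F10 in fetal liver.

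Of the 8 other procoagulant and contact genes, 6 were at least 4-fold higher in adult than in fetal liver, against 14.1% of all genes compared. The carrier subunit of factor XIII, F13b, was 29.5-fold, prekallikrein (Klkb1) 27.9-fold, and the kininogens Kng1 and Kng2 14.7-fold and 13.9-fold higher. The catalytic subunit of factor XIII, F13a1, known from megakaryocytes and macrophages, was instead at least 26.2-fold lower in adult liver. It gave 5.15 in adult liver, 644 in fetal liver, against 29600 in bone marrow, the reverse order of its partner F13b with 4420 in adult liver, 195 in fetal liver, against 5.81 in bone marrow. Fetal liver was 19.8-fold lower than bone marrow for F13a1 and at least 19.1-fold higher for F13b. Against bone marrow, adult liver was higher by 4-fold or more for 6 of 8 genes. It was lower for F13a1 (at least 519-fold) and for Vwf, the carrier of factor VIII (6.08-fold). Over all genes compared, 18.8% were higher and 15.0% lower.

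Among 10 anticoagulants, 5 were at least 4-fold higher in adult than in fetal liver, against 14.1% of all genes compared, and 0 lower, against 12.1%. The 5 were protein Z (Proz, 25.7-fold), antithrombin (Serpinc1, 16.5-fold), protein C (Proc, 10.2-fold), its cofactor Pros1 (5.13-fold) and heparin cofactor II (Serpind1, 4.65-fold). Fetal liver was at least 1349-fold higher than bone marrow for Serpind1 and 632-fold for Serpinc1. Thrombomodulin (Thbd), the thrombin receptor that activates protein C, was 6.52-fold lower in fetal liver than in bone marrow, with signals of 180 in adult liver, 125 in fetal liver, against 1890 in bone marrow. The tissue factor pathway inhibitor Tfpi was at least 7.65-fold lower in adult liver than in bone marrow.

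Genes of fibrinolysis, the breakdown of fibrin, had 4 of 8 compared members at least 4-fold higher in adult than in fetal liver. None was at least 4-fold lower. Over all genes compared, the shares were 14.1% and 12.1%. Histidine-rich glycoprotein (Hrg) stood out with 17500 in adult liver, 55.1 in fetal liver, against 86.3 in bone marrow, 413-fold higher in adult than in fetal liver. Pzp was 55.8-fold, plasminogen (Plg) 9.74-fold and the plasma carboxypeptidase Cpb2 9.04-fold higher. The plasmin inhibitor Serpinf2 differed by only 2.04-fold between the livers, with 45200 in adult liver and 28800 in fetal liver, but fetal liver was 1002-fold above bone marrow. The urokinase receptor Plaur was 57.9-fold lower in fetal liver than in bone marrow, with signals of 45.7 in adult liver, 97.7 in fetal liver, against 13100 in bone marrow.

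Genes that process clotting factors were detected in all 3 tissues. Of these 6 genes, 3 were at least 4-fold higher in adult than in fetal liver, against 14.1% of all genes compared. These were the protease Furin (8.93-fold), the cargo receptor subunit Mcfd2 (6.20-fold) and Vkorc1, the vitamin K reductase (6.12-fold). The gamma-carboxylase Ggcx, which modifies the vitamin K dependent factors, was 3.82-fold higher and fell short of 4-fold. Between fetal liver and bone marrow only Ggcx passed 4-fold (4.58-fold), 1 gene of 6, where 17.6% of all genes did so. Of 7 receptors and cofactors on cells, only 3 could be compared between the livers. The integrin chain Itgb3 was 30.9-fold lower in adult liver, and F2r and Itgb2 differed by less than 4-fold. Over all genes compared, 12.1% were at least 4-fold lower in adult liver. Itgam and Itgb2, the chains of a leukocyte receptor for fibrinogen, were 79.4-fold and 51.6-fold lower in fetal liver than in bone marrow, while the thrombin receptor gene F2r was 5.22-fold higher. Of 11 transcription factors of the liver, 6 were at least 4-fold higher in adult than in fetal liver, against 14.1% of all genes. The largest differences were those of Cebpa (15.5-fold), Nr1i3 (5.79-fold) and Cebpb (5.51-fold). Between fetal liver and bone marrow, 7 of the 11 were at least 4-fold higher, against 9.33% of all genes, and 0 lower. Cebpa and Cebpb were not among the 7, being 1.22-fold and 3.56-fold lower in fetal liver. The median differences between the livers were 12.1-fold for the other procoagulant genes, 3.60-fold for anticoagulants, 4.30-fold for fibrinolysis, 4.84-fold for processing and 4.09-fold for the transcription factors, all higher in adult liver, beside 12.4-fold for the 10 clotting genes. Over the 3 receptors compared, the median was -0.99 on the log2 scale.

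**Figure D4:**
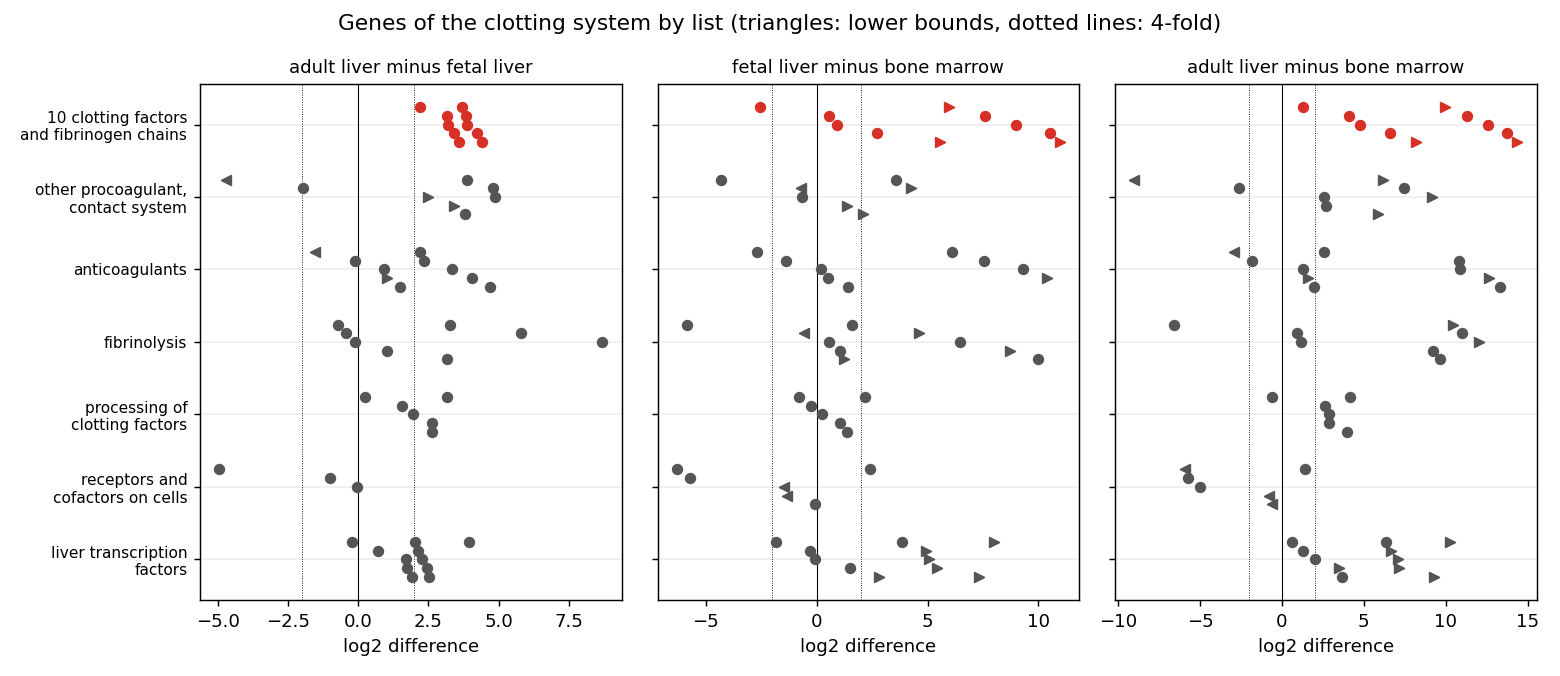
Log2 differences in the 3 comparisons for the 10 clotting genes (red) and for 6 lists of genes of the clotting system (grey), with 1 point per gene, triangles for lower bounds and dotted lines at 4-fold. The 10 clotting genes occupy a narrow range between the livers, from 2.21 to 4.41, and a wide one between fetal liver and bone marrow.

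For each of the 7 clotting genes well above background on all 3 arrays, the 2 genes of most similar pattern were sought among 11625 others. The measure was the distance between their pairs of log2 differences, adult minus fetal liver and fetal liver minus bone marrow. The clotting genes themselves, the gene lists of the clotting system and the cell type markers were left out of the search, so a left-out gene can lie nearer. F10 lay nearest to Ackr2 (0.02) and Tnfaip8l1 (0.08), F7 to Gstz1 (0.08) and Trf (0.21), F9 to Rmdn2 (0.09) and Tsku (0.13), and F5 to Irf7 (0.12) and Ctsh (0.15). Of the genes searched, F12 was nearest to the complement gene Hc (0.43) and to Gcgr (0.52). The left-out anticoagulant gene Proc was nearer to F12 than Hc, with differences of 3.35 and 7.54 beside 3.69 and 7.60 for F12. For F2 and Fgb the nearest genes searched were farther off, at 0.94 for F2 and 1.08 for Fgb, in both cases Fabp1. Next came Gcgr (1.11) for F2 and Ambp (1.13) for Fgb. The left-out anticoagulant gene Serpinc1 was nearer to F2 than Fabp1, with differences of 4.04 and 9.30 beside 3.59 and 8.98 for F2. A likeness over 3 arrays describes these samples alone.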

How the data were processed

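Total RNA was labelled with Cy3 and read on 3 arrays of 1 slide in 1 scan, 1 array per tissue. Agilent Feature Extraction 10.5.1.1 read the spots (file headers, submitters' processing notes). The intensity the authors deposited was background-subtracted and detrended, with a surrogate value for dim spots and no normalization between arrays, per the file headers. In a further table by the authors, the raw intensity column matched the scanner's error of the signal to 1% for 45018 of 45018 spots per array, and the signal for only 12064 to 15081. The authors' normalized ratio column was that raw column divided by a constant per array (29.3 in adult liver, 37.8 in fetal liver, 85.3 in bone marrow), its 75th percentile over all spots, so that table served only as an alternative.

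Control and outlier spots (75 for adult liver, 71 for fetal liver, 80 for bone marrow) were left out, log2 signals were scaled to the 75th percentile of the array, and spots of 1 probe were averaged with pandas 2.3.3 and numpy 2.4.6 under Python 3.11.15. Of 41174 probes, 32685 were named through the accession or symbol in the files and a RefSeq gene table (GRCm38.p6). A gene was represented by the probe well above background on most arrays, ties going to the brightest. A gene counted as different at 4-fold. With a probe dim on 1 array, only a lower bound is given, against the higher of its own signal and the lowest scaled signal well above background, and with both dim there is no fold. Saturation was flagged on 0 spots. The number of arrays limits the precision, and no test was possible. Scaling and the 4-fold calls were tested on simulated arrays in which only bright probes changed. The lower bounds for dim probes were not tested there. Alternatives were other scalings, quantile normalization, normexp in limma 3.58.1 (R 4.3.3), other filters, probes and folds, and the authors' table.

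The 10 genes and the gene lists were chosen with earlier results of these data known. All 10 genes are named with every probe. From each list, up to 4 genes with the largest difference in a comparison are named, and genes past 4-fold against the direction of their list. For each clotting gene well above background on all arrays, the 2 genes of most similar pattern outside the lists and markers are named as well. Further genes and the chromosome neighbours were picked after their values were seen, as were the promoter motifs. A gene of the lists and the motifs that go with it are not reported here.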

Additional observations from a re-analysis of the deposited data

How the results depend on the processing

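No paired analysis was possible because each tissue has 1 array, and no replicate could be left out. Over the 6 settings that recompute every gene (4 other scalings or normalizations, normexp and the authors' table), 0 of the 27 differences past 4-fold changed sign. The 3 under 4-fold each turned with spike-in scaling, F9 (-1.66) and F10 (-1.28) between fetal liver and bone marrow and F5 (-1.47) between adult liver and bone marrow. The settings on dim probes and on the choice of probe, among them the other F9 probe, chosen after seeing the data, leave most genes as they were by construction. The number of genes at least 4-fold higher between fetal liver and bone marrow was 4 of 7 instead of 7 of 10 among genes well above background on both arrays, and the number at least 4-fold lower was 0 instead of 1 with normexp and with an 8-fold limit. With spike-in scaling, 9 genes instead of 10 were at least 4-fold higher in adult than in fetal liver. Against bone marrow, 6 instead of 7 were then higher in fetal liver and 8 instead of 9 in adult liver. On the log2 scale, the median of the 10 genes between adult and fetal liver was 3.09 with spike-in scaling, 3.21 with quantile normalization and 3.42 with normexp, instead of 3.64. Between fetal liver and bone marrow it was 5.34 with median scaling, 3.55 with spike-ins, 5.41 with quantile normalization, 3.84 with normexp, 7.01 without the filter on dim probes, 2.70 over the 7 genes measured in both and 4.41 with the authors' table, instead of 5.75. Between adult liver and bone marrow it was 8.70, 6.31, 8.52, 6.94, 10.05, 6.57 and 7.71 in the same order, instead of 9.07. The lower median over measured genes follows from leaving out Fga, Fgg and F11, and the cause of the other shifts was not tested. Over all genes, those at least 4-fold higher in adult than in fetal liver numbered 1458 with spike-ins against 2007, and those lower 2661 with spike-ins and 1103 with normexp against 1711. Between fetal liver and bone marrow 328 were higher with spike-ins and 866 with normexp against 1370, and 7113 lower with spike-ins against 1218. Between adult liver and bone marrow 872 were higher and 9405 lower with spike-ins against 2676 and 2139. Signals near the lowest well above background limit the folds of F2, F12 and Fgb against bone marrow. Low fetal liver signals also limit the folds of F5 and F9, whose log2 differences between the livers were 2.91 and 3.46 with normexp instead of 3.84 and 4.24.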

Other observations

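The nearest protein-coding genes on either side of the clotting genes, in RefSeq order and with a probe on the array, were compared as well, a choice made after values at these loci were seen. They were 14 genes, of which 12 could be compared between the livers. Of these, 4 were at least 4-fold higher in adult than in fetal liver, 1 lower and 7 neither. Over all genes compared, 14.1% were higher and 12.1% lower. Those higher were Proz, next to F10, and Klkb1, next to F11, both clotting genes themselves, together with Lrat beside Fgg (at least 29.1-fold) and Mtnr1a beside F11 (at least 10.1-fold). Plrg1, the neighbour of Fgb, gave 672 in adult liver, 1800 in fetal liver, against 3720 in bone marrow, 2.06-fold lower in adult than in fetal liver. Ckap5, next to F2, was 8.89-fold lower in adult than in fetal liver, where F2 was 12.0-fold higher. Mcf2l, next to F7, gave 27.7 in adult liver, 23.2 in fetal liver, against 45.5 in bone marrow. Beside F5, the platelet and endothelial adhesion gene Selp gave 52.6 in adult liver, 41.6 in fetal liver, against 874 in bone marrow, 9.07-fold lower in fetal liver than in bone marrow. The thiamine transporter gene Slc19a2, on the other side of F5, was 6.49-fold higher in fetal liver than in bone marrow.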
